A study of Homo sapiens with 26 samples.

Results

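The antioxidant and detoxification genes that are known targets of the transcription factor NRF2 were followed through mRNA-seq of 3 established lines of human esophageal squamous cell carcinoma (ESCC). The 10 genes were NFE2L2, which encodes NRF2 itself, and GCLC, GCLM, TXNRD1, SRXN1, NQO1, AKR1C1, AKR1C2, AKR1B10 and ME1. They were taken by symbol from the 26485 genes of each deposited table, and all 10 were present in all 5 tables and passed the filter on low values in every comparison. The 26 libraries formed 11 groups. KYSE180 cells received control siRNA (siCont) or siRNA against BRDT (siBRDT) in the BRDT experiment, 3 libraries each. In a separate TP63 experiment KYSE180 cells received siCont or siRNA against TP63 (siTP63), 2 libraries each. The study lists several siRNAs against each of these genes, and the labels do not say which were used. TE6 cells received siCont, siBRDT or siTP63, 2 libraries each in a single table, so the siBRDT and siTP63 comparisons in TE6 share their control libraries. KYSE150 cells received siCont or siTP63, 2 libraries each, and in the overexpression experiment 3 KYSE150 control libraries (cont) stood beside 3 with overexpressed BRDT (BRDT-OE). Per the study's methods, siRNAs were lipofected, and for overexpression cells were electroporated with a BRDT plasmid or its control vector. The knockdown cells were collected 48 h after transfection, KYSE180 and TE6 were grown with 10% and KYSE150 with 5% fetal bovine serum, and per the study KYSE180 and TE6 express BRDT and KYSE150 does not. BRDT is a bromodomain protein normally restricted to germ cells, and TP63 encodes p63, a transcription factor of squamous epithelium.

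In resting cells NRF2 is bound by KEAP1, an adaptor of a CUL3 ubiquitin ligase, and degraded. Oxidants and electrophiles modify KEAP1, NRF2 then accumulates, pairs with a small MAF protein and binds antioxidant response elements near genes for glutathione synthesis, thioredoxin recycling, quinone and carbonyl reduction and NADPH supply, while BACH1 competes for the same elements as a repressor. In squamous cancers of the esophagus and lung, NFE2L2 and KEAP1 are known to be recurrently mutated, which can keep the pathway active. NRF2 activity is set largely at the protein level, and these data measure RNA.

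Values are normalised read counts, that is, gene counts divided by a size factor for each library, set separately in each table. Libraries held 7582089 to 19372441 reads. Fold changes are given on the log2(value + 1) scale from limma, which understates changes of genes with low counts, and calls required both an adjusted p under 0.05 (Benjamini-Hochberg, over all genes tested) and a change of 0.5 or more on that scale. The labels do not say that replicates came from separate cultures, so p-values measure only the spread between these libraries. Where groups are said not to overlap, the share of all genes without overlap was not determined. With 2 libraries each, a lack of overlap is a weak criterion. BRDT fell under siBRDT in KYSE180 (-2.75 ± 0.12 SE) and TE6 (-2.23 ± 0.16 SE), TP63 fell under siTP63 in KYSE180 (-1.70 ± 0.14 SE) and TE6 (-4.45 ± 0.12 SE), and in KYSE150 the TP63 value of -2.34 ± 0.26 (SE) missed the threshold (adjusted p = 0.0818), with no overlap between the groups. TP63 was also called down under siBRDT, at -0.58 ± 0.074 (SE) in KYSE180 and -1.15 ± 0.12 (SE) in TE6. Summed over 9 squamous markers, each library had 903 to 6943 RPM (reads scaled to a library total of 1e6), beside 3.29 to 104 RPM over 4 fibroblast markers, 0 to 2.10 over 3 leukocyte markers and 0.636 to 12.1 over 3 endothelial markers. In these bulk samples, fewer cells carrying an RNA and less of it per cell cannot be told apart.

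On GRCh38 (GENCODE release 44) the 10 genes lie on 8 chromosomes. NFE2L2 is at chr2:177218667-177392756, minus strand, and its annotated span overlaps AGPS and HNRNPA3 on the opposite strand. The subunit genes of glutamate-cysteine ligase are GCLC at chr6:53497341-53616970, minus strand, and GCLM at chr1:93885199-93909456, minus strand. TXNRD1 is at chr12:104215779-104350307, plus strand, and contains EID3 on its own strand, while SRXN1 is at chr20:646615-653200, minus strand. NQO1 is at chr16:69706996-69726668, minus strand, AKR1B10 at chr7:134527567-134541412, plus strand, and ME1 at chr6:83210402-83431051, minus strand. AKR1C1 (chr10:4963253-4983283, plus strand) and AKR1C2 (chr10:4987775-5018031, minus strand) are neighbours on opposite strands. The library kit does not mark strand, so reads from overlapping genes cannot be separated by strand.

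AKR1C1 and AKR1C2 are so alike that their reads can be misassigned or, where they fit both genes, left uncounted. Of the 6494 stretches of 50 bases in the AKR1C1 transcript, 22.3% also occurred in AKR1C2, and 45.7% of the 3166 stretches of AKR1C2 occurred in AKR1C1. AKR1B10 shared 11.3% of its stretches with AKR1B15. Within the 250 bases before the RefSeq starts, AKR1C1 and AKR1C2 shared an unbroken run of 245 bases. Its first 84 bases, up to the first base in an annotated exon, are shown because they were identical letter for letter. They are given 5′ to 3′ on each gene's own strand (RefSeq, GRCh38.p14, chr10:4963169-4963252 plus strand and chr10:5004024-5004107 minus strand). The AKR1C1 stretch ends directly before the GENCODE start of that gene, so the rest of the run lies within its span. The AKR1C2 stretch lies inside the GENCODE span of AKR1C2, so upstream here means before the RefSeq start only.
AKR1C1 upstream: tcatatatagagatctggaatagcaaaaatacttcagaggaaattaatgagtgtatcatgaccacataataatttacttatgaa
AKR1C2 upstream: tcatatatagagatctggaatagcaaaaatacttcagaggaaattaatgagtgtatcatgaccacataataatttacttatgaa

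The core of the antioxidant response element, searched as TGACNNNGC on both strands, occurred within 250 bases upstream of a RefSeq start in 3 of the 9 members with such a window (GCLM, TXNRD1 and ME1), against 13.2% of 27305 genes with a window. A match is a run of letters and not a measured binding site, and elements known to act farther upstream lie outside this window. The matches are shown with 10 bases on each side because they place the motif beside the genes whose RNA is described here. The motif is in capitals, on the gene's own strand. GCLM and the second TXNRD1 window hold it in reverse complement. Positions are chr1:93909446-93909474 (minus strand) for GCLM, chr6:83431170-83431198 (minus strand) for ME1, and chr12:104215670-104215698 and chr12:104286920-104286948 (plus strand) for different starts of TXNRD1.
GCLM: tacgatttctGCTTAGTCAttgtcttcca
ME1: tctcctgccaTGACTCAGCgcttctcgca
TXNRD1 start 1: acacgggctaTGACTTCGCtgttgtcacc
TXNRD1 start 2: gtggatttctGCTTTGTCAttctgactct

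The lines differed most in the aldo-keto reductases before any treatment. Levels are given as RPKM (RPM per kb of transcript), mean ± SD over the control libraries, with no test, since each table was normalised on its own and line, experiment and serum cannot be told apart. AKR1B10, which reduces retinal and other aldehydes, stood at 1262 ± 32.5 RPKM in TE6 (n = 2), 94.9 ± 1.67 in the BRDT experiment of KYSE180 (n = 3) and 244 ± 22.2 in its TP63 experiment (n = 2). In KYSE150 it was 1.16 ± 0.176 with siCont (n = 2) and 1.77 ± 0.188 in the overexpression controls (n = 3). AKR1C1, a reductase of steroids and carbonyls, stood at 419 ± 5.30 RPKM in TE6, 113 ± 5.11 and 325 ± 16.1 in KYSE180, and 0.115 ± 0.0246 and 0.460 ± 0.0697 in KYSE150, in the same order of groups and with the same n. In RPM, AKR1C1 was 982-fold lower in KYSE150 with siCont than in the BRDT experiment of KYSE180, on 10 and 8 reads with siCont and 58, 43 and 38 in the overexpression controls. AKR1C2 stood at 302 ± 10.4, 84.0 ± 3.87, 197 ± 7.43, 0.544 ± 0.105 and 0.392 ± 0.178 RPKM.

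The other members were expressed in all 3 lines. GCLC, the catalytic subunit of the enzyme that begins glutathione synthesis, was highest in TE6 at 239 ± 6.27 RPKM and lowest in KYSE150 with siCont at 9.60 ± 4.56, with 123 ± 2.98 and 78.5 ± 0.191 in KYSE180 and 30.8 ± 1.34 in the overexpression controls. GCLM, the modifier subunit of that enzyme, ranged from 7.52 ± 0.0566 RPKM in the TP63 experiment of KYSE180 to 20.3 ± 0.873 in the overexpression controls, and the range of the BRDT experiment of KYSE180 overlapped those of TE6 and of KYSE150 with siCont. NQO1, a quinone reductase, lay between 214 ± 28.8 RPKM in the overexpression controls and 740.1 ± 10.7 in the TP63 experiment of KYSE180. TXNRD1 (thioredoxin reductase) lay between 49.8 ± 5.91 and 172 ± 11.2 RPKM, SRXN1 (sulfiredoxin, which repairs peroxiredoxins) between 57.2 ± 12.0 and 186 ± 1.58, ME1 (cytosolic malic enzyme, a source of NADPH) between 8.61 ± 1.62 and 45.8 ± 0.156, and NFE2L2 between 16.0 ± 2.43 and 80.3 ± 3.16. By group mean GCLC, TXNRD1, SRXN1, ME1, AKR1C1, AKR1C2 and AKR1B10 were thus highest in TE6, while NFE2L2, NQO1 and GCLM were not.

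The controls of KYSE180 differed between its experiments although line and siRNA had the same labels. In RPM, AKR1C1 was 2.88-fold, AKR1B10 2.57-fold and NQO1 2.49-fold as high in the TP63 experiment as in the BRDT experiment, while TXNRD1 was 2.69-fold and NFE2L2 2.02-fold higher in the BRDT experiment. The ranges of these groups did not overlap. KYSE150 controls also differed, NFE2L2 being 2.49-fold and AKR1C1 4.01-fold higher in the overexpression controls than with siCont. These gaps were as large as many treatment effects, so treated and control libraries were compared only within a table. AKR1C1 was placed on a transcript of 6543 bases, which lowers its level per kb if a shorter form is used.

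**Figure D1:**
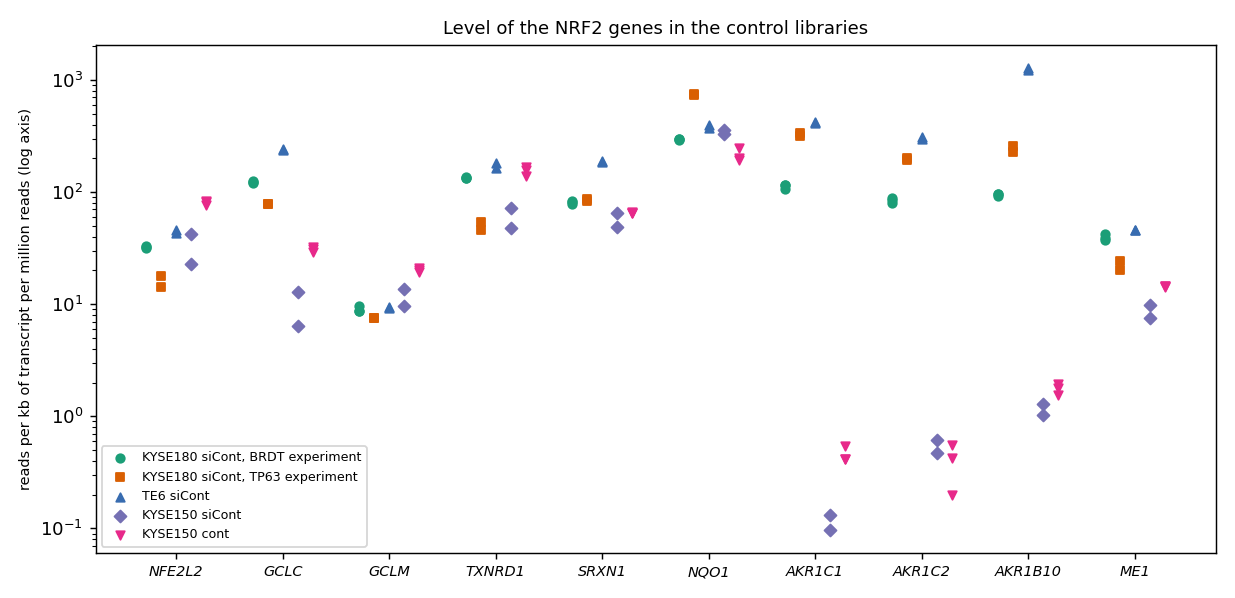
Level of each of the 10 genes in the control libraries, in RPKM on a log axis. Each point is 1 library and its shape and colour give the control group. AKR1C1, AKR1C2 and AKR1B10 in KYSE150 lie far below KYSE180 and TE6, and the KYSE180 points of the BRDT and TP63 experiments stand apart for most genes.

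**Figure D2:**
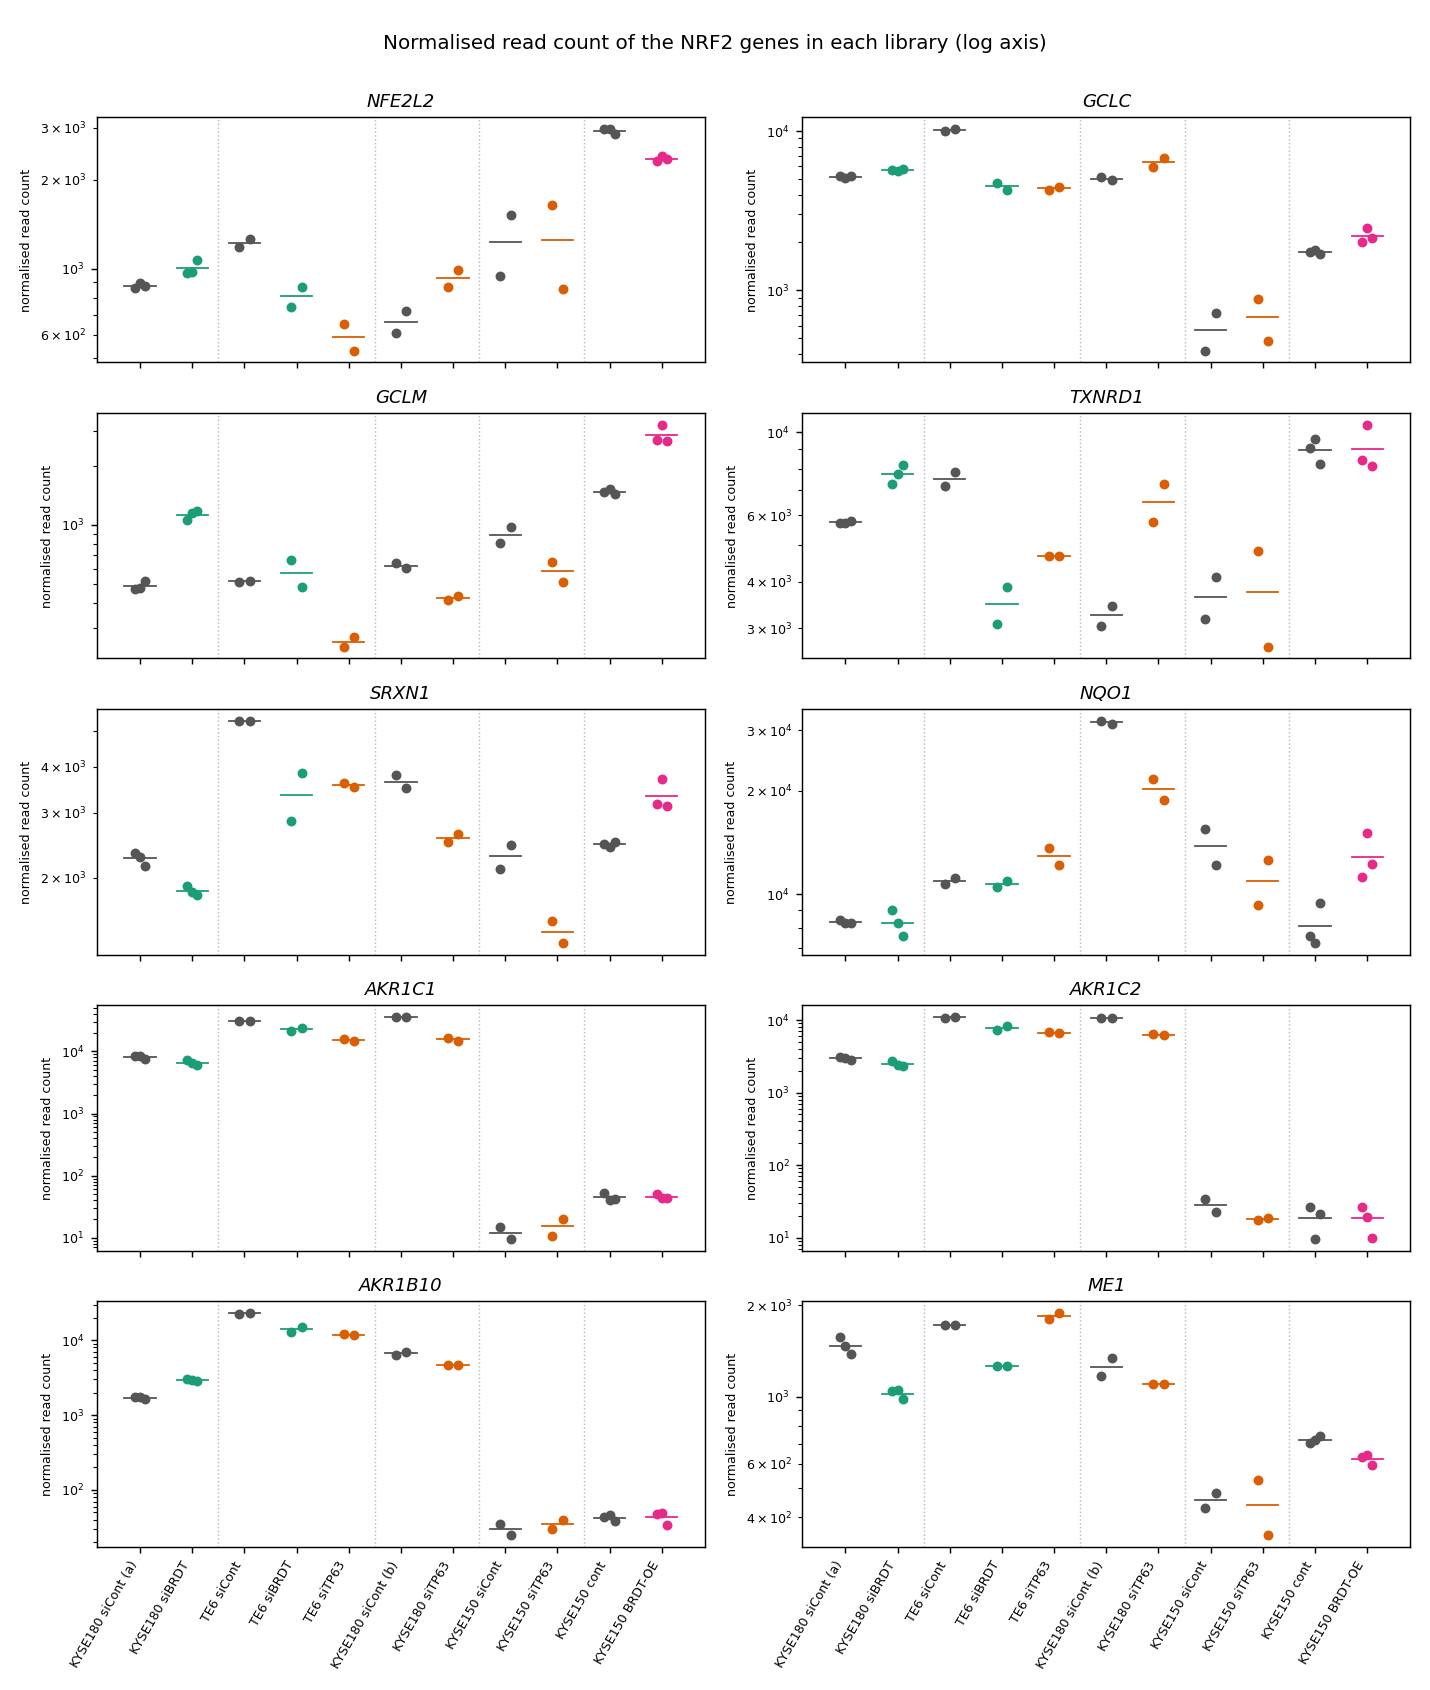
Normalised read count of each gene in every library on a log axis, with a bar at the group mean. Dotted lines separate the 5 tables, which were normalised separately. KYSE180 siCont (a) belongs to the BRDT and (b) to the TP63 experiment. Grey marks controls, green siBRDT, orange siTP63 and pink BRDT-OE. The reader should compare points between dotted lines only: GCLM rises under siBRDT in KYSE180 and under BRDT-OE, and most genes fall in TE6.

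In KYSE180, siBRDT was followed by higher GCLM and AKR1B10 and lower ME1, with the other members moving by less. Of the 10 genes 2 were called up, against 14.5% of all 13589 genes tested, and 1 down, against 15.8%. GCLM values were 474, 476 and 521 with siCont and 1057, 1155 and 1179 with siBRDT, so every siBRDT library was more than 2-fold above every control. Its log2 fold change was 1.20 ± 0.073 (SE), or 2.30-fold (limma, adjusted p = 5.58e-09, n = 3 each). AKR1B10 values were 1731, 1731 and 1655 with siCont and 3044, 2912 and 2816 with siBRDT, without overlap, a log2 fold change of 0.78 ± 0.060 (SE, limma, adjusted p = 6.28e-08). ME1 went the other way, from 1569, 1466 and 1386 to 1040, 1051 and 980.2, a log2 fold change of -0.52 ± 0.068 (SE, limma, adjusted p = 1.09e-05). The ME1 value sat close to the fold-change limit: it was -0.48 without siCont replicate 1, -0.49 without siBRDT replicate 3, -0.45 after removal of the trend with transcript length and GC content and -0.44 with libraries scaled to equal totals, all short of a call. Equal library totals moved the share of lower genes among all calls from 52.1 to 40.3%.

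Of the remaining 7 genes in KYSE180, 6 shifted under siBRDT past the adjusted p but not the fold-change limit, and their groups did not overlap. Without that limit, 4044 of the 13589 genes tested were lower and 3893 higher at that adjusted p in limma. TXNRD1 was 5711, 5738 and 5798 with siCont and 7266, 7721 and 8149.9 with siBRDT, a log2 fold change of 0.42 ± 0.061 (SE, limma, adjusted p = 3.04e-05). NFE2L2 differed by 0.20 and GCLC by 0.14, while SRXN1 differed by -0.29, AKR1C1 by -0.31 and AKR1C2 by -0.27. TXNRD1 was called up with equal library totals (0.51). NFE2L2 missed the adjusted p when any single siCont library or siBRDT replicate 3 was left out (limma, adjusted p = 0.051 to 0.069). GCLC missed it when any single library except siBRDT replicate 3 was left out (limma, adjusted p = 0.0621 to 0.167) and with no filter on low values (0.0887). NQO1, often used as the readout of NRF2, was 8433, 8251 and 8263 with siCont and 8993, 8239 and 7548 with siBRDT. These groups overlapped, and its log2 fold change of -0.013 had a 95% confidence interval of -0.16 to 0.13. Of the subunits of glutamate-cysteine ligase, only GCLM was called. The median over the 10 genes was 0.064, beside -0.0052 over all genes tested.

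In TE6, siBRDT was followed by lower expression of GCLC, TXNRD1, AKR1B10, SRXN1 and NFE2L2 itself. Of the 10 genes 5 were called down, against 18.1% of 13333 genes tested, and 0 up, against 15.6%. edgeR and DESeq2 each called 5 down and 0 up as well, and their all-gene shares are not given here. At an unadjusted p under 0.05 in limma 8 were lower and 0 higher, against 27.8% and 25.2% of all genes. GCLC values were 10066 and 10378 with siCont and 4698 and 4296 with siBRDT, 2.27-fold lower, with a log2 fold change of -1.19 ± 0.090 (SE, limma, adjusted p = 2.07e-06, n = 2 each). TXNRD1 values were 7169 and 7812 with siCont and 3085 and 3878 with siBRDT, a log2 fold change of -1.11 ± 0.11 (SE, limma, adjusted p = 1.32e-05). In both genes every siBRDT library lay far below both controls. AKR1B10 went from 22699 and 23388 to 13014 and 15024, a log2 fold change of -0.72 ± 0.094 (SE, limma, adjusted p = 7.81e-05). SRXN1 went from 5304 and 5333 to 2858 and 3849, or -0.68 ± 0.12 (SE, limma, adjusted p = 0.000695), and NFE2L2 from 1185 and 1264 to 746 and 869.6, or -0.60 ± 0.13 (SE, limma, adjusted p = 0.00228). For both, siBRDT replicate 1 was the lower library, and without it SRXN1 (-0.47) and NFE2L2 (-0.49) no longer reached the fold-change limit. That library also stood apart in breadth, with reads in 20995 genes, beside 16458 to 17569 genes in the other TE6 libraries. Whether this bears on the siBRDT values in TE6 was not tested.

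AKR1C1 (-0.46 ± 0.090 SE), AKR1C2 (-0.499 ± 0.095 SE) and ME1 (-0.45 ± 0.095 SE) stood just short of the fold-change limit in TE6 with siBRDT, each with an adjusted p under 0.05 in limma and no overlap between groups. With the length and GC trend removed, AKR1C1 and ME1 missed that p (limma, adjusted p = 0.67 and 0.0928). AKR1C2 was called without siCont replicate 1 (-0.53), and without siBRDT replicate 2 both AKR1C1 (-0.52) and AKR1C2 (-0.60) were. All 3 passed when the libraries were scaled to equal totals, which gave 8 members called down. That scaling also shifted the all-gene median by -0.101 and the share of lower genes among all calls from 53.8 to 66.5%. The 8 calls are to be read beside that shift, and the all-gene share called down under that scaling is not given here. GCLM, the gene with the largest rise in KYSE180, was 514 and 520.3 with siCont and 662 and 481 with siBRDT in TE6. The siBRDT libraries lay on either side of the controls, and the log2 fold change was 0.13 (95% confidence interval -0.20 to 0.46). It was 0.53 and called up when the length and GC trend was taken out. NQO1 was 10696 and 11123 with siCont and 10493 and 10934 with siBRDT, again with overlap, a log2 fold change of -0.026 (95% confidence interval -0.22 to 0.17). The median over the 10 genes was -0.55, beside -0.040 over all genes tested.

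The siBRDT effect differed between KYSE180 and TE6 for 6 of the 10 genes, tested as a contrast of the fold changes of both lines, against 40.6% of 12598 genes tested. The difference (KYSE180 minus TE6, log2) was 1.54 ± 0.14 (SE, adjusted p = 1.02e-06) for TXNRD1, 1.50 ± 0.12 (SE, adjusted p = 3.5e-07) for AKR1B10 and 1.33 ± 0.11 (SE, adjusted p = 5.32e-07) for GCLC, by limma. These genes were higher under siBRDT in KYSE180 and lower in TE6. For GCLM the difference was 1.08 ± 0.17 (SE, adjusted p = 0.000147) and for NFE2L2 0.80 ± 0.13 (SE, adjusted p = 0.00025). SRXN1 was lower in both lines and differed by 0.39 ± 0.15 (SE, adjusted p = 0.0435), a call that was lost when any single library except TE6 siBRDT replicate 2 was left out (0.17 without TE6 siBRDT replicate 1) and with no filter on low values (limma, adjusted p = 0.064). AKR1C1, AKR1C2 and ME1 were lower in both lines, and their differences of 0.15 ± 0.13 (SE, adjusted p = 0.394), 0.23 ± 0.13 (SE, adjusted p = 0.161) and -0.074 ± 0.12 (SE, adjusted p = 0.649) did not pass, nor did that of NQO1 at 0.013 ± 0.12 (SE, adjusted p = 0.94).

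**Figure D3:**
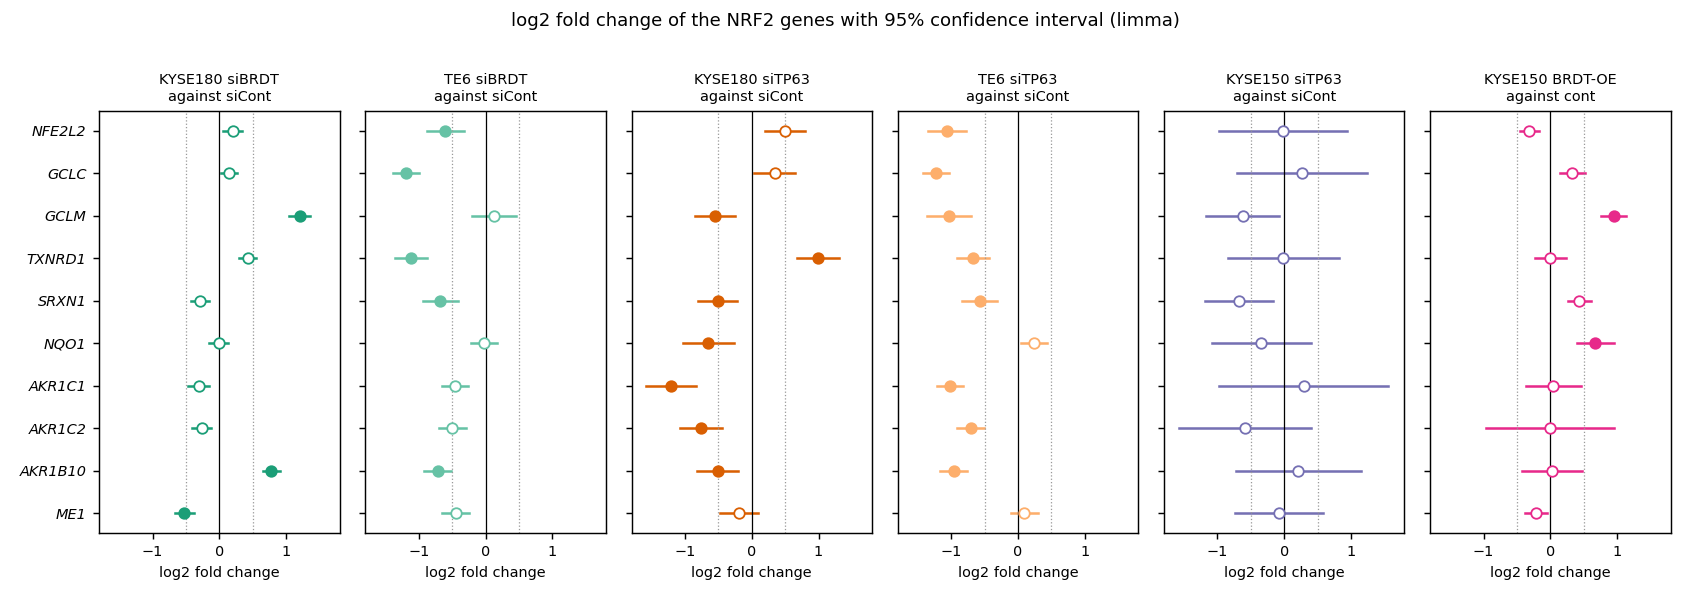
log2 fold change of each gene in the 6 comparisons, treated against control, with its 95% confidence interval from limma. Filled points were called, open points were not, and dotted lines mark the fold-change limit of 0.5. GCLC, TXNRD1 and AKR1B10 lie on opposite sides of 0 in KYSE180 and TE6 under siBRDT, and the intervals of the siTP63 comparison in KYSE150 are the widest.

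In TE6, siTP63 was followed by lower expression of most of the set. Of the 10 genes 8 were called down, against 20.6% of 13333 genes tested, and 0 up, against 18.3%. edgeR and DESeq2 gave the same member counts, and their all-gene shares are not given here. At an unadjusted p under 0.05 in limma 8 were lower and 1 was higher, against 29.1% and 27.5% of all genes. GCLC values were 10066 and 10378 with siCont and 4297 and 4446 with siTP63, 2.34-fold lower, with a log2 fold change of -1.23 ± 0.090 (SE, limma, adjusted p = 5.4e-07, n = 2 each). GCLM fell too, from 514 and 520.3 to 238 and 268, a log2 fold change of -1.03 ± 0.15 (SE, limma, adjusted p = 0.000136). NFE2L2 fell from 1185 and 1264 to 652 and 527, or -1.06 ± 0.13 (SE, limma, adjusted p = 3.03e-05). Each siTP63 library lay below each control for all 8 genes, a count that stands without a share over all genes.

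AKR1C1 in TE6 was 30748 and 31099 with siCont and 15747 and 14723 with siTP63, a log2 fold change of -1.02 ± 0.090 (SE, limma, adjusted p = 2.31e-06). AKR1B10 was 22699 and 23388 with siCont and 11963 and 11726 with siTP63, or -0.96 ± 0.094 (SE, limma, adjusted p = 5.05e-06). With both genes the siTP63 libraries lay close together and far below the controls. AKR1C2 fell from 10732 and 11192 to 6846 and 6571, or -0.71 ± 0.095 (SE). TXNRD1 fell from 7169 and 7812 to 4688 and 4688, or -0.67 ± 0.11 (SE). SRXN1 fell from 5304 and 5333 to 3604 and 3530.5, or -0.58 ± 0.12 (SE). NQO1 was 10696 and 11123 with siCont and 13645 and 12184 with siTP63, higher in both siTP63 libraries by 0.24 ± 0.091 (SE, limma, adjusted p = 0.0419), below the fold-change limit. That p was missed with no filter, with the replicate block and without siCont replicate 1, siCont replicate 2 or siTP63 replicate 1 (limma, adjusted p = 0.0535 to 0.266). ME1 was 1725 and 1722 and 1797 and 1892, a log2 fold change of 0.098 (95% confidence interval -0.11 to 0.30). The median over the 10 genes was -0.83, beside -0.011 over all genes tested. All 8 calls held under every alternative tried.

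The siBRDT and siTP63 values in TE6 are set side by side without a test, since they share the control libraries. GCLC changed by -1.19 and -1.23, TXNRD1 by -1.11 and -0.67, AKR1C1 by -0.46 and -1.02, GCLM by 0.13 and -1.03 and ME1 by -0.45 and 0.098, respectively.

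In KYSE180, siTP63 was followed by a fall of AKR1C1 and a rise of TXNRD1, whereas the changes of the other members depended on how the libraries were scaled. AKR1C1 values were 35458 and 36409.5 with siCont and 16586 and 14633 with siTP63, 2.31-fold lower, with a log2 fold change of -1.21 ± 0.18 (SE, limma, adjusted p = 3.77e-06, n = 2 each). TXNRD1 values were 3047 and 3451 with siCont and 5758 and 7253 with siTP63, 1.99-fold higher, with a log2 fold change of 0.99 ± 0.15 (SE, limma, adjusted p = 5.33e-06). Both changes were called under every scaling tried, AKR1C1 ranging from -0.68 with equal library totals to -1.52 with the length and GC trend removed, and TXNRD1 from 0.79 with that trend removed to 1.52 with equal library totals.

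On the values as deposited, 6 of the 10 genes were called down in KYSE180 with siTP63, against 25.7% of 13924 genes tested, and 1 up, against 23.6%. Besides AKR1C1 these were AKR1C2 (-0.77 ± 0.15 SE), NQO1 (-0.65 ± 0.18 SE), GCLM (-0.55 ± 0.15 SE), AKR1B10 (-0.51 ± 0.15 SE) and SRXN1 (-0.51 ± 0.14 SE). NQO1 went from 31963 and 31226 to 21578 and 18765 and GCLM from 639 and 605 to 413 and 437, without overlap. AKR1C2 went from 10669 and 10771 to 6425 and 6191, AKR1B10 from 6400.2 and 6966 to 4671 and 4688 and SRXN1 from 3795 and 3496 to 2499 and 2624, again with every siTP63 library below both controls. NFE2L2 at 0.49 ± 0.15 (SE) and GCLC at 0.34 ± 0.15 (SE) were higher and ME1 at -0.19 ± 0.14 (SE) lower, short of a call. Scaling to equal upper quartiles shifted the all-gene median by 0.195 and the share of lower genes among all calls from 52.1 to 36.8%. It left 2 members down and 3 up, beside 2631 genes down and 4524 up among the 13924 tested. Scaling to equal library totals moved that median by 0.523 and that share to 17.8%. With equal totals 1 member was down and 3 up, beside 1460 genes down and 6728 up among the 13924 tested. GCLM then stood at -0.025, NQO1 at -0.13, NFE2L2 at 1.02 and GCLC at 0.87, while SRXN1 (0.016), AKR1B10 (0.012) and ME1 (0.33) changed sign. AKR1C2 stood at -0.24 with equal totals (limma, adjusted p = 0.106). It kept its call with equal upper quartiles, with the length and GC trend removed, in edgeR and in DESeq2. With the length and GC trend removed 4 members were down and 1 up, with AKR1B10 at -0.24 (limma, adjusted p = 0.0543) and SRXN1 at -0.47 short of a call. edgeR called 3 down and 2 up and DESeq2 5 down and 1 up. The all-gene counts under the length and GC, edgeR and DESeq2 alternatives are not given here, so these member counts stand without a share. As deposited, the call on NQO1 was lost without siTP63 replicate 2 (-0.55), that on AKR1B10 without siCont replicate 2 (-0.45), and that on SRXN1 without siCont replicate 1 (-0.45) or siTP63 replicate 1 (-0.47). NFE2L2 was called up without siCont replicate 2 (0.62) or siTP63 replicate 1 (0.59). The median over the 10 genes as deposited was -0.51, beside 0.00064 over all genes tested.

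**Figure D4:**
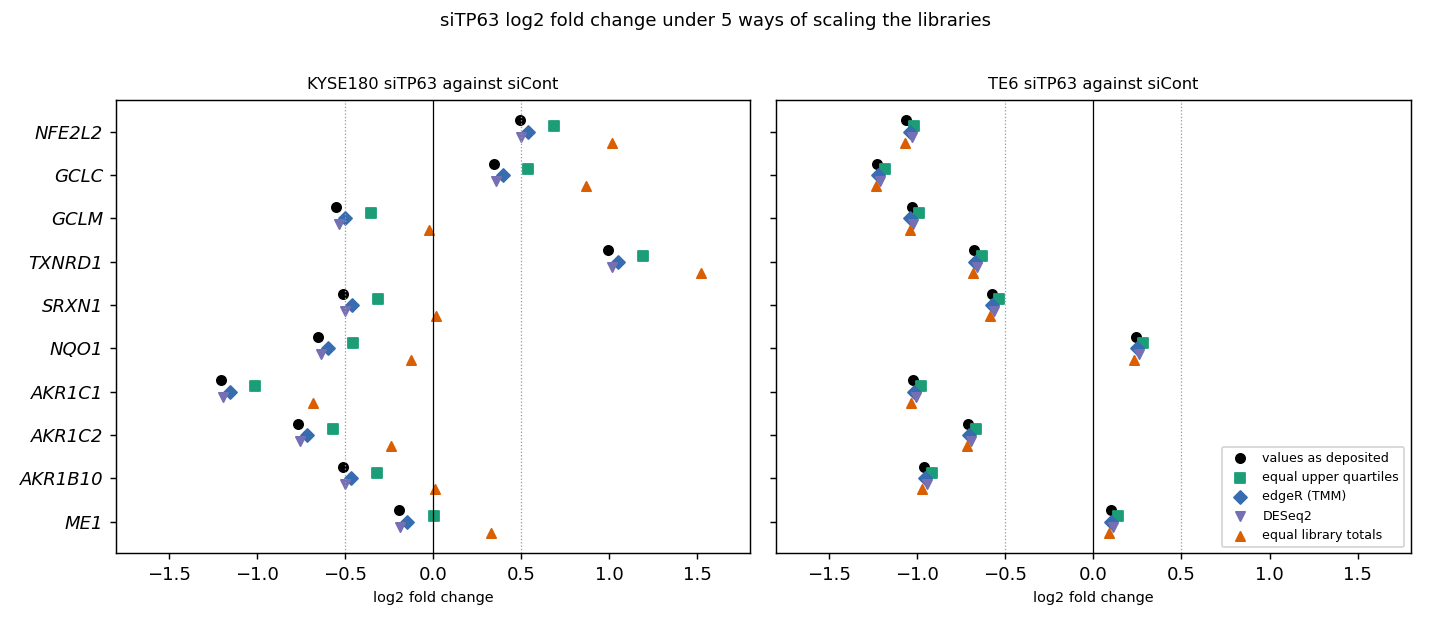
log2 fold change under siTP63 in KYSE180 (left) and TE6 (right) for each gene, with the libraries scaled in 5 ways, 1 symbol each. Dotted lines mark the fold-change limit of 0.5. In TE6 the 5 symbols lie on top of each other, and in KYSE180 the triangles for equal library totals lie to the right of the others for every gene.

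In KYSE150 with siTP63, where TP63 itself missed the threshold, none of the 10 genes was called on the values as deposited. At that threshold 0% of the 12335 genes tested were called in either direction. At an unadjusted p under 0.05, 2 members were lower, against 9.12% of all genes, and 0 higher, against 8.67%, and edgeR and DESeq2 called 0 members as well, while DESeq2 called 261 genes down and 201 up over all genes. With the length and GC trend taken out, 736 genes were called down and 505 up, and of the members SRXN1 was called down (-0.72, limma, adjusted p = 0.0369). Same-numbered libraries of this comparison deviated in opposite directions (correlation -0.703), and a crossed replicate block, chosen after seeing the data and pairing each siCont library with the siTP63 library of the other number, called 2 members down and 0 up, beside 1774 genes down and 1626 up. SRXN1 values were 2113 and 2458 with siCont and 1533 and 1329.6 with siTP63, a log2 fold change of -0.67 ± 0.20 (SE, limma, adjusted p = 0.188, n = 2 each). GCLM values were 806 and 980 with siCont and 647 and 515 with siTP63, or -0.62 ± 0.22 (SE, limma, adjusted p = 0.236). In both genes, and in AKR1C2, the groups did not overlap, a weak criterion with 2 libraries each and without a share over all genes. NFE2L2 was 950.3 and 1517 with siCont and 1648 and 854 with siTP63, and TXNRD1 3187 and 4101 and 4815 and 2671, so that replicates differed more than the groups did. The 95% confidence intervals were -0.97 to 0.94 for NFE2L2, -0.84 to 0.82 for TXNRD1, -1.08 to 0.40 for NQO1 and -0.73 to 0.58 for ME1, and GCLC differed by 0.26 ± 0.39 (SE). AKR1C1 had 10 and 8 reads with siCont and 13 and 15 with siTP63, AKR1C2 23 and 19 and 21 and 14, and AKR1B10 24 and 21 and 36 and 30, and no difference was detectable at these counts.

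siTP63 effects were also compared between lines, with all 3 lines in a single fit that pooled their spread for each gene. For AKR1C1 the SE of the contrast of KYSE180 with KYSE150 (0.35) was thus below that of the KYSE150 change alone (0.51). Between KYSE180 and TE6 its SE (0.35) was above those of the separate fits (0.18 and 0.090). Adjusted p-values of the contrasts with KYSE150 may therefore be too small. Between KYSE180 and TE6, 4 of the 10 genes differed, against 45.6% of 11464 genes tested. The difference (KYSE180 minus TE6, log2) was 1.67 ± 0.35 (SE, adjusted p = 0.00622) for TXNRD1, 1.57 ± 0.40 (SE, adjusted p = 0.0116) for GCLC, 1.55 ± 0.41 (SE, adjusted p = 0.0135) for NFE2L2 and -0.89 ± 0.26 (SE, adjusted p = 0.0207) for NQO1, by limma. The 4 calls shrank to 2 without KYSE180 siCont replicate 1 and to 1 without KYSE180 siTP63 replicate 2, and with equal upper quartiles 6 genes differed. The all-gene share with equal upper quartiles is not given here. The contrasts were not refitted with equal library totals or with the length and GC trend removed. Equal totals shifted the all-gene median by 0.523 in KYSE180 siTP63 and by -0.0099 in TE6 siTP63. They moved NQO1 in KYSE180 siTP63 from -0.65 to -0.13. AKR1C1 and AKR1C2, which fell in both lines as deposited, differed by -0.18 ± 0.35 (SE, adjusted p = 0.69) and -0.057 ± 0.23 (SE, adjusted p = 0.855). Between KYSE180 and KYSE150, AKR1C1 differed by -1.50 ± 0.35 (SE, adjusted p = 0.0253), the only one of the 10 to do so, against 14.3% of genes. Between TE6 and KYSE150, GCLC (-1.49 ± 0.40 SE, adjusted p = 0.0456), AKR1C1 (-1.31 ± 0.35 SE, adjusted p = 0.0462) and AKR1B10 (-1.17 ± 0.25 SE, adjusted p = 0.0207) differed, against 8.54% of genes. The AKR1C1 and AKR1B10 contrasts with KYSE150 rest on at most 36 reads per KYSE150 library. None of the contrasts with KYSE150 was stable when single libraries were left out: the count fell to 0 without any of the KYSE180 or TE6 libraries, and without KYSE150 siCont replicate 2 for KYSE180, and rose to 4 (KYSE180, without KYSE150 siTP63 replicate 1) and 6 (TE6, without KYSE150 siTP63 replicate 2).

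Overexpression of BRDT in KYSE150 was followed by higher GCLM and NQO1. BRDT itself had a value of 8.13, 16.0 and 6.58 in the control and 15872, 15927 and 17542 in the BRDT-OE libraries. Of the 10 genes 2 were called up, against 10.5% of 12765 genes tested, and 0 down, against 16%. edgeR and DESeq2 gave the same member counts, and their all-gene shares are not given here. At an unadjusted p under 0.05 in limma 2 members were lower and 4 higher, against 28.1% and 29.3% of all genes. GCLM values were 1466, 1531 and 1443 in the controls and 2720.2, 3246 and 2663 with BRDT-OE, 1.94-fold higher, with a log2 fold change of 0.95 ± 0.085 (SE, limma, adjusted p = 1.7e-05, n = 3 each). NQO1 values were 7557, 7199.5 and 9450.5 in the controls and 11215, 15047 and 12274 with BRDT-OE, 1.59-fold higher, or 0.67 ± 0.13 (SE, limma, adjusted p = 0.00135). In both genes every BRDT-OE library lay above every control. Scaling to equal upper quartiles shifted the all-gene median by -0.0979 and the share of lower genes among all calls from 60.3 to 74%, and equal library totals moved them by -0.123 and to 77.2%. GCLM and NQO1 were called up under both.

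SRXN1 (0.44 ± 0.078 SE) and GCLC (0.33 ± 0.084 SE) were also higher with BRDT-OE, and NFE2L2 (-0.31 ± 0.063 SE) and ME1 (-0.21 ± 0.074 SE) lower, each past the adjusted p in limma but not the fold-change limit and without overlap. ME1 missed that p without control replicate 1 or any BRDT-OE library, with no filter, with the replicate block and in DESeq2 (adjusted p = 0.0505 to 0.138), and GCLC with equal library totals (limma, adjusted p = 0.0633). NFE2L2 values were 2968, 2981 and 2847 in the controls and 2309, 2408 and 2352 with BRDT-OE, with every BRDT-OE library below every control. TXNRD1 was 9093, 9572 and 8209.6 in the controls and 8439, 10473 and 8122 with BRDT-OE, with overlapping groups and a log2 fold change of 0.0022 (95% confidence interval -0.23 to 0.23). AKR1C1 (0.043), AKR1C2 (-0.0048) and AKR1B10 (0.025) stayed at 7 to 60 reads per library in both groups, with confidence intervals of -0.37 to 0.46, -0.97 to 0.96 and -0.43 to 0.48. The median over the 10 genes was 0.034, beside 0.017 over all genes tested, and in the siTP63 comparison of KYSE150 it was -0.046 beside -0.0077.

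Since AKR1C1 and AKR1C2 can exchange reads, their counts were also summed. The sum cannot restore reads left uncounted because they fit both genes. The sum changed by -0.30 under siBRDT in KYSE180, -0.47 under siBRDT in TE6, -1.09 under siTP63 in KYSE180 and -0.93 under siTP63 in TE6. The summed siTP63 values lay between those of the separate genes. The share of AKR1C1 among the reads of both genes was 73.5 to 74.1% with siCont, 74.0 to 74.9% with siBRDT and 69.1 to 69.7% with siTP63 in TE6. In KYSE180 it was 76.9 to 77.2% with siCont and 70.3 to 72.1% with siTP63, and 72.8 to 73.6% with siCont and 72.1 to 73.0% with siBRDT in the BRDT experiment. AKR1C1 thus lost more than AKR1C2 under siTP63 in both lines, with no overlap of the shares and no test made.

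Among 9 regulators of NRF2, BACH1 was called in 3 of the 6 comparisons on the values as deposited. KEAP1, the inhibitor of NRF2, differed by 0.33 under siBRDT in KYSE180, 0.23 in TE6, 0.19 under siTP63 in TE6, 0.082 in KYSE150 and 0.48 with BRDT-OE, none of them called. Under siTP63 in KYSE180 it was called down at -0.53 ± 0.15 (SE, limma, adjusted p = 0.00387), but it was not called without siCont replicate 1 (-0.37), without siTP63 replicate 2 (-0.49), with equal upper quartiles (-0.33), with the length and GC trend removed (-0.43), with equal library totals (-0.0051) or in edgeR (-0.49). With BRDT-OE it was called up without control replicate 3 (0.52) and with the length and GC trend removed (0.60). BACH1 fell in TE6, from 275 and 336 to 166 and 109.9 with siBRDT (-1.16 ± 0.21 SE, limma, adjusted p = 0.000661) and to 140 and 179 with siTP63 (-0.94 ± 0.21 SE, limma, adjusted p = 0.00231). All siBRDT and siTP63 libraries lay below both controls. The siTP63 call on BACH1 was lost without siCont replicate 2 (-0.79). In KYSE180 BACH1 was 127 and 139.6 with siCont and 165 and 227 with siTP63, called up at 0.53 ± 0.19 (SE, limma, adjusted p = 0.0188), and it differed by -0.28 under siBRDT, -0.23 in KYSE150 and -0.080 with BRDT-OE. The call was lost without siCont replicate 1 (0.47), without siTP63 replicate 2 (0.30), with the length and GC trend removed (0.20, limma, adjusted p = 0.303), with no filter on low values (limma, adjusted p = 0.0713) and in DESeq2 (adjusted p = 0.0541). MAFG, a small MAF partner, was called in none of the 6 comparisons, with values between -0.29 and 0.13. Of all 9 regulators 2 were called down in TE6 with siBRDT (BACH1 and NFE2L1), 2 down (KEAP1 and RBX1) and 1 up (BACH1) in KYSE180 with siTP63, 1 down in TE6 with siTP63 (BACH1), 1 down with BRDT-OE (MAFF), and 0 in KYSE180 with siBRDT, where 4 were lower and 2 higher at an unadjusted p under 0.05, against 31.8% and 30.9% of all genes. These counts stand beside all-gene shares of 15.8% down and 14.5% up with siBRDT in KYSE180, 18.1% and 15.6% with siBRDT in TE6, 25.7% and 23.6% with siTP63 in KYSE180, 20.6% and 18.3% with siTP63 in TE6, 0% and 0% with siTP63 in KYSE150, and 16% and 10.5% with BRDT-OE.

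The wider pathway, 49 further genes in 7 lists, is given by role. Of the 48 that passed the low-value filter in KYSE180 and TE6, 1 was called down and 9 up with siBRDT in KYSE180, 8 down and 9 up with siBRDT in TE6, 22 down and 6 up with siTP63 in KYSE180, and 12 down and 6 up with siTP63 in TE6. Of all genes tested, 15.8% were called down and 14.5% up, 18.1% and 15.6%, 25.7% and 23.6%, and 20.6% and 18.3%, in the same order. In KYSE150, 0 of 43 were called with siTP63 (6 lower and 4 higher at an unadjusted p under 0.05 in limma, against 9.12% and 8.67% of all genes), where 0% of all genes were called, and 6 of 44 were called down and 1 up with BRDT-OE, against 16% and 10.5%. The medians were 0.11, -0.045, -0.44, -0.20, -0.085 and -0.053, in the same order, to be read beside the all-gene medians above.

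The counts by role are to be read beside the same all-gene shares. Of 11 glutathione genes, of which 9 passed the low-value filter in KYSE150, the calls were 0 down and 1 up with siBRDT in KYSE180, 1 down and 1 up with siBRDT in TE6, 4 down and 2 up with siTP63 in KYSE180, 4 down and 2 up with siTP63 in TE6 and 2 down and 0 up with BRDT-OE. Of 3 thioredoxin genes (TXN, PRDX1 and PRDX6), all 3 were called down with siTP63 in KYSE180, PRDX6 was called up with both siRNAs in TE6, and 0 were called in the other comparisons, where 3 were lower with siBRDT in KYSE180 and 1 higher with BRDT-OE at an unadjusted p under 0.05, against 31.8% and 29.3% of all genes. Of 5 genes of NADPH supply the calls were 0 down and 1 up with siBRDT in KYSE180, 0 down and 1 up with siBRDT in TE6, 3 down and 1 up with siTP63 in KYSE180, 1 down and 1 up with siTP63 in TE6 and 0 down and 0 up with BRDT-OE. Of 13 detoxification genes, of which 11 passed it with BRDT-OE, the calls were 1 down and 3 up with siBRDT in KYSE180, 4 down and 3 up with siBRDT in TE6, 7 down and 2 up with siTP63 in KYSE180, 6 down and 0 up with siTP63 in TE6 and 2 down and 1 up with BRDT-OE. Of 4 genes of haem and iron handling the calls were 0 down and 1 up with siBRDT in KYSE180, 1 down and 2 up with siBRDT in TE6, 2 down and 0 up with siTP63 in KYSE180, 0 down and 2 up with siTP63 in TE6 and 1 down and 0 up with BRDT-OE. Of 4 other targets, of which 3 passed the filter and NR0B1 did not, the calls were 0 down and 3 up with siBRDT in KYSE180, 0 down and 1 up with siBRDT in TE6, 1 down and 0 up with siTP63 in KYSE180, 0 down and 0 up with siTP63 in TE6 and 0 down and 0 up with BRDT-OE. Of 7 antioxidant enzymes outside the NRF2 lists, such as SOD1, CAT and GPX1, the calls were 0 down and 1 up with siBRDT in KYSE180, 1 down and 2 up with siBRDT in TE6, 5 down and 1 up with siTP63 in KYSE180, 1 down and 0 up with siTP63 in TE6 and 2 down and 0 up with BRDT-OE. All of these lists had 0 calls with siTP63 in KYSE150. The siTP63 counts in KYSE180 carry the dependence on scaling given above. All pathway counts are on the values as deposited, and the lists were not recounted under any alternative.

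The pathway genes with the largest changes are given for each comparison. With siBRDT in KYSE180, OSGIN1, a stress-induced growth inhibitor, went from 686, 639 and 709 to 2365, 2632 and 2045 (1.78 ± 0.084 SE), and HMOX1 (haem oxygenase 1, 1.21) and ADH7 (an alcohol dehydrogenase, 0.95) also rose, while UGT1A6 (-0.79), a glucuronosyltransferase that shares exons with other UGT1A genes, fell. With siBRDT in TE6, OSGIN1 (0.78), the carbonyl reductase CBR3 (0.90) and the glutathione transferase GSTP1 (0.79) rose, and UGT1A6 (-1.53) and ADH7 (-1.13) fell. OSGIN1 was thus higher and UGT1A6 lower in both lines, while ADH7 changed in opposite directions. So did HMOX1, which was called down with siBRDT in TE6. With siTP63 in TE6, ALDH3A1, an aldehyde dehydrogenase of squamous and corneal epithelium, went from 24467 and 21370.3 to 1658 and 1693 (-3.77 ± 0.096 SE). CYP4F11 (-1.75) and glutathione reductase GSR (-1.10) fell with it, and ABCC3 (0.96), GSTP1 (0.80) and the ferritin gene FTH1 (0.73) rose. On the values as deposited, with siTP63 in KYSE180, CBR3 (-2.30), ALDH3A1 (-1.83) and GPX4 (-1.48) fell. The transporter gene ABCC3 (1.18), IDH1 (1.11) and ABHD4 (1.05) rose there. Equal library totals shifted the all-gene median of that comparison by 0.523, and the shift of each of these genes was not examined. With BRDT-OE, CBR3 (0.51) rose, and BLVRB (-0.86), ABCC3 (-0.70) and CYP4F11 (-0.64) fell. All of these genes had an adjusted p under 0.05 in limma in the comparison given. The values of the genes named in this paragraph were not examined under any alternative scaling or with the length and GC trend removed. In TE6 with siBRDT, removing that trend lowered the all-gene calls from 2419 to 1563 down and from 2074 to 1158 up.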

How the data were processed

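mRNA-seq libraries (TruSeq RNA kit V2) came from 3 ESCC lines. The deposited tables hold a signal per gene, namely read counts that the authors divided by a size factor for each library, and per the study's methods reads were aligned to hg38 with STAR, counted with HTSeq and analysed with DESeq2. The submitters' processing notes name STAR 2.6.0, HTSeq 0.11.2 and DESeq2 1.24.0. The gene annotation and the strand setting of the counting were not given in the sources used here. Whole reads were recovered for 100.0% of values (within 0.001 read). Libraries held 7582089 to 19372441 reads, and the limit that 0 reads allows, 3 reads, equals 0.155 to 0.396 RPM, covering counting error only. No sample column was left out.

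Values were compared as log2(value + 1) by limma 3.58.1 (lmFit, then eBayes with a mean-variance trend) in R 4.3.3, over genes with a mean of at least 10 in the libraries of the fit, and adjusted by the Benjamini-Hochberg method over all genes tested. KYSE180 and KYSE150 comparisons used the 2 groups compared, and TE6 comparisons used all 3 TE6 groups. Calls required an adjusted p under 0.05 together with a change of 0.5 or more on the log2 scale. Differences between lines were contrasts in a joint fit, called by adjusted p alone. All tests are two-sided. edgeR 4.0.16 (quasi-likelihood) and DESeq2 1.42.0 on the recovered reads were alternatives, as were a pseudocount of 0.1, no filter, upper-quartile scaling, removal of the trend on length and GC content (known for 87.4% of genes), a replicate block and leaving out each library. Equal library totals and a crossed block were added after seeing the data. The contrasts between lines were refitted only with the other pseudocount, no filter, upper-quartile scaling and each library left out. The fits were tested on simulated data. Same-numbered libraries did not deviate together (correlations -0.703 to 0.178), so replicate numbers were not taken as pairs. The lowest value, in KYSE150 with siTP63, led to the crossed block there.

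The genes named are the 10 members, BRDT and TP63, KEAP1, BACH1 and MAFG, and per comparison up to 3 pathway genes with the largest rise and up to 3 with the largest fall among called genes with a mean value of at least 100 and no overlap. Other pathway genes, such as RBX1 and PRDX6, were named after their values were seen. The members and lists were chosen with earlier results of these data known. Figures and tables were made with Python 3.11.15, pandas 2.3.3 and matplotlib 3.10.9.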

Additional observations from a re-analysis of the deposited data

Results flagged for a closer look

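Changes that differed between cell lines by a test of the difference itself (limma, adjusted p under 0.05) are gathered here. Of all genes tested, 40.6% differed for siBRDT between KYSE180 and TE6. For siTP63, 45.6% differed between KYSE180 and TE6, 14.3% between KYSE180 and KYSE150 and 8.54% between TE6 and KYSE150. The members below are to be read beside these shares. For siBRDT in KYSE180 against TE6, the log2 fold changes differed by 0.80 for NFE2L2, 1.08 for GCLM, 1.33 for GCLC, 1.54 for TXNRD1, 0.39 for SRXN1 and 1.50 for AKR1B10, first line minus second. For siTP63 in KYSE180 against TE6, the log2 fold changes differed by 1.55 for NFE2L2, -0.89 for NQO1, 1.57 for GCLC and 1.67 for TXNRD1, first line minus second. For siTP63 in KYSE180 against KYSE150, the log2 fold changes differed by -1.50 for AKR1C1, first line minus second. For siTP63 in TE6 against KYSE150, the log2 fold changes differed by -1.49 for GCLC, -1.31 for AKR1C1 and -1.17 for AKR1B10, first line minus second. The cause of these differences was not tested. None was refitted with equal library totals, which shifted the all-gene median of KYSE180 siTP63 by 0.523, or with the length and GC trend removed. Line, table and experiment cannot be told apart, and the contrasts with KYSE150 were lost when certain single libraries were left out. So was that of SRXN1 for siBRDT, without any single library except TE6 siBRDT replicate 2 (and with no filter on low values). For siTP63 in KYSE180 against TE6, NQO1 was lost without KYSE180 siCont replicate 1 or siTP63 replicate 2, TE6 siCont replicate 1 or 2, or TE6 siTP63 replicate 1, NFE2L2 without KYSE180 siCont replicate 1 or siTP63 replicate 2, or TE6 siTP63 replicate 2, and GCLC without KYSE180 siTP63 replicate 2, while TXNRD1 passed without each library in turn.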

How the results depend on the processing

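The 8 falls in TE6 under siTP63 and the rises of GCLM and NQO1 with BRDT-OE kept their calls under every alternative, and the rises of GCLM and AKR1B10 in KYSE180 under siBRDT did too, whereas most KYSE180 siTP63 calls depended on scaling. Depth limits AKR1C1, AKR1C2 and AKR1B10 in KYSE150. Where leaving out a library left 1 sample in a group, that sample was assumed to vary like the other groups. The replicate block changed no member count. The cause of the moves below was not tested. Gene counts are listed only where they moved by more than a set limit, so some member counts stand without one. Without the fold-change limit, counts became 4044 genes down and 4 members down and 3893 genes up and 5 members up in KYSE180 siBRDT, 8 members down in TE6 siBRDT, 2 members up in KYSE180 siTP63, 1 member up in TE6 siTP63 and 3195 genes down and 2 members down and 3326 genes up and 4 members up in BRDT-OE. With upper-quartile scaling, counts became 2 members down and 3 members up in KYSE180 siTP63 and 889 genes up in BRDT-OE. With upper-quartile scaling, the sign turned for NQO1 (0.0090) in KYSE180 siBRDT, NQO1 (0.0097) in TE6 siBRDT, ME1 (0.0028), MAFG (0.016) in KYSE180 siTP63, NFE2L2 (0.041), TXNRD1 (0.047) in KYSE150 siTP63, TXNRD1 (-0.096), AKR1C1 (-0.053), AKR1B10 (-0.071) in BRDT-OE, AKR1C1 (0.031), AKR1C2 (0.16) in the siTP63 contrast of KYSE180 and TE6 and AKR1C2 (0.025), ME1 (0.079) in the siTP63 contrast of KYSE180 and KYSE150. With edgeR, counts became 3 members down and 2 members up in KYSE180 siTP63. With edgeR, the sign turned for NQO1 (0.0048) in KYSE180 siBRDT, NFE2L2 (0.040), TXNRD1 (0.060) in KYSE150 siTP63 and TXNRD1 (-0.012), AKR1C2 (0.041) in BRDT-OE. With DESeq2, counts became 261 genes down and 201 genes up in KYSE150 siTP63. With DESeq2, the sign turned for NFE2L2 (0.021), TXNRD1 (0.041) in KYSE150 siTP63 and TXNRD1 (-0.0016), AKR1C2 (0.012) in BRDT-OE. With the length and GC trend removed, counts became 0 members down in KYSE180 siBRDT, 1563 genes down and 1158 genes up and 1 member up in TE6 siBRDT and 736 genes down and 1 member down and 505 genes up in KYSE150 siTP63. With the length and GC trend removed, the sign turned for NQO1 (0.013) in KYSE180 siBRDT, NQO1 (0.031), KEAP1 (-0.00029) in TE6 siBRDT, KEAP1 (-0.048) in TE6 siTP63, NFE2L2 (0.052), TXNRD1 (0.013), ME1 (0.037) in KYSE150 siTP63 and TXNRD1 (-0.085), AKR1C1 (-0.089) in BRDT-OE. With equal library totals, counts became 0 members down in KYSE180 siBRDT, 8 members down in TE6 siBRDT, 1460 genes down and 1 member down and 6728 genes up and 3 members up in KYSE180 siTP63 and 792 genes up in BRDT-OE. With equal library totals, the sign turned for NQO1 (0.074) in KYSE180 siBRDT, SRXN1 (0.016), AKR1B10 (0.012), ME1 (0.33), MAFG (0.34) in KYSE180 siTP63, NFE2L2 (0.086), TXNRD1 (0.092), ME1 (0.029) in KYSE150 siTP63 and TXNRD1 (-0.12), AKR1C1 (-0.078), AKR1B10 (-0.096) in BRDT-OE. With no filter on low values, counts became 18 genes down and 27 genes up in KYSE150 siTP63. With the replicate block, counts became 48 genes down and 89 genes up in KYSE150 siTP63. With a crossed replicate block, counts became 1774 genes down and 2 members down and 1626 genes up in KYSE150 siTP63. With AKR1C1 and AKR1C2 summed, the sign turned for AKR1C1 (-0.25) in KYSE150 siTP63 and AKR1C2 (0.030) in BRDT-OE. Leaving out 1 library at a time gave 0 to 1 member down in KYSE180 siBRDT, 1483 to 2707 genes down and 3 to 7 members down in TE6 siBRDT, 1 to 2 members up in KYSE180 siTP63, 77 to 177 genes down and 108 to 182 genes up in KYSE150 siTP63, 2392 to 4356 genes and 1 to 4 members in the siTP63 contrast of KYSE180 and TE6, 170 to 4454 genes and 0 to 4 members in the siTP63 contrast of KYSE180 and KYSE150 and 194 to 3840 genes and 0 to 6 members in the siTP63 contrast of TE6 and KYSE150. The sign turned for NQO1 (-0.076 to 0.050) in KYSE180 siBRDT, NQO1 (-0.056 to 0.0035), GCLM (-0.10 to 0.36) in TE6 siBRDT, NFE2L2 (-0.49 to 0.46), GCLC (-0.18 to 0.70), TXNRD1 (-0.44 to 0.41), AKR1C1 (-0.12 to 0.71), AKR1B10 (-0.043 to 0.47), ME1 (-0.38 to 0.23), KEAP1 (-0.11 to 0.27), BACH1 (-0.50 to 0.036) in KYSE150 siTP63, TXNRD1 (-0.11 to 0.073), AKR1C1 (-0.039 to 0.16), AKR1C2 (-0.41 to 0.37), AKR1B10 (-0.075 to 0.20) in BRDT-OE, NQO1 (-0.050 to 0.076) in the siBRDT contrast of KYSE180 and TE6, GCLM (-0.090 to 0.24), GCLC (-0.36 to 0.52), AKR1C2 (-0.47 to 0.12), ME1 (-0.42 to 0.19) in the siTP63 contrast of KYSE180 and KYSE150 and SRXN1 (-0.011 to 0.21), AKR1C2 (-0.41 to 0.18), ME1 (-0.13 to 0.48) in the siTP63 contrast of TE6 and KYSE150 when libraries were left out.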
